A study of Mus musculus with 2 samples.

Results

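Nr4a1, Nr4a3, Egr1, Egr2, Egr3, Fos, Fosb, Jun, Junb and Ier2 are immediate early genes, and they were followed in lymph node cells of mice carrying a heart graft. They were taken by symbol and are 10 of the 27933 symbols measured. The allogeneic group was Balb/c recipients of a C57BL/6 heart, and the syngeneic group was Balb/c recipients of a Balb/c heart. The mice were 6 to 8 weeks old in both groups, and all recipients had a transplanted heart, so neither group shows the genes in an unoperated mouse. Each group had 1 droplet single-cell RNA library, and no difference below has a replicate check or a test. Neither the time after grafting nor the number of mice per library is given in the sources used here. All intervals are 95% intervals of counting error alone. Those of levels and ratios treat UMIs as independent, also UMIs of the same cell.

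Immediate early genes are transcribed within minutes of a stimulus from factors already present in the cell, without new protein synthesis. In lymphocytes, engagement of the T or B cell antigen receptor acts through calcium, protein kinase C and MAP kinases, and Nr4a1, Nr4a3, Egr1, Egr2 and Egr3 are widely read as its record. Fos, Fosb, Jun and Junb are subunits of the AP-1 transcription factor and, with Ier2, also answer serum, cytokines, heat, and the handling and enzymatic dissociation of tissue. The former 5 genes are called receptor-type here and the latter 5 stress-type. The names are labels for known inducers, since both kinds of stimulus can induce members of both groups.

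Promoters of 7 of the 10 genes were found in the RefSeq table of build GRCm38.p6, which spans 250 bases before to 50 bases after each transcription start. Examples of each group are 4 genes. Nr4a1 and Egr2 had lower counts in B cells of the allogeneic library. Fos and Junb were higher in CD4 and CD8 T cells of that library, though Fos in CD8 T cells did not hold in all settings. The 150 bases just before the start are shown for these 4 genes. They lie at chr15:101266696-101266845 on the plus strand for Nr4a1, chr10:67537416-67537565 on the plus strand for Egr2, chr12:85473740-85473889 on the plus strand for Fos and chr8:84978749-84978898 on the minus strand for Junb. Each is written 5′ to 3′ along the gene, and capitals mark either the half-site of the cAMP response element, TGACG on either strand, or the CArG box bound by serum response factor.
Nr4a1: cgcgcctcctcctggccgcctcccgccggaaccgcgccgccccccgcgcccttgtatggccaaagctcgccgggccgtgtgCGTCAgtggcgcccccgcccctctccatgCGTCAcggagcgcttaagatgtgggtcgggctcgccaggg
Egr2: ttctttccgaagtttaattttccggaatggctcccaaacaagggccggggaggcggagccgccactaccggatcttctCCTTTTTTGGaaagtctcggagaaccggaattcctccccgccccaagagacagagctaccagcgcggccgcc
Fos: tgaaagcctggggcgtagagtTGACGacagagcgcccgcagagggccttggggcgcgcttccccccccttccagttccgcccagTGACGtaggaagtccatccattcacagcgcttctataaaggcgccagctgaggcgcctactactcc
Junb: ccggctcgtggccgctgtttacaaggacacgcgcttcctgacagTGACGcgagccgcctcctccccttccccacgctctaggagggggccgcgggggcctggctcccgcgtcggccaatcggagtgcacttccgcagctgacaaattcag
The half-site was found in 6 of the 7 promoters at full table length, Jun being the exception, and 23% of the 27025 genes with a promoter in that table hold it. The CArG box was found in Egr2 alone, in the shown stretch 72 bases before the start, against 1.81% of genes. Egr2 had 5 promoter entries and the other matched genes 1 each, and a motif in any entry was counted. The Egr2 entry shown was picked because it holds the box. The motifs do not overlap in the stretches shown. A match describes these letters only and is not a measured binding site.

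The allogeneic library was shallower and carried more RNA of other cells. It held 3500 barcodes with 8415043 unique molecular identifiers (UMIs, counted transcripts), against 7967 barcodes and 46486632 UMIs in the syngeneic library, and its lowest barcode had 150 UMIs against 3447. Barcodes with 200 or more genes and no more than 10% of UMIs from mitochondria were kept as cells, 2106 and 7957 of them, and 66 barcodes occurred in both libraries. Cells were gated on marker UMIs: 270 allogeneic and 1063 syngeneic CD4 T cells, 464 and 2338 CD8 T cells, 91 and 127 Foxp3+ T cells, and 317 and 812 B cells. Marker genes not used in the gates followed the labels: 6 T cell genes summed to 2162 and 2682 CPM (counts scaled to a common total per gate) in the CD4 gate against 170 and 273 CPM in the B gate, and 5 B cell genes to 2219 and 2102 CPM in the B gate against at most 54.2 CPM in any T gate. Regulatory T cell genes summed to 1508 and 1354 CPM in the Foxp3+ gate. The neutrophil genes S100a8, S100a9 and Retnlg summed to between 1030 and 16152 CPM in the allogeneic gates and between 6.94 and 74.8 CPM in the syngeneic gates, with none of the 3 at 0. The 5 erythroid genes summed to between 4781 and 24129 CPM and between 41.7 and 2461 CPM. Cells with at least 5 neutrophil or 20 haemoglobin UMIs made up 25.2% to 50.6% of an allogeneic gate and at most 0.369% of a syngeneic gate. The median cell of an allogeneic gate held 3 to 4 neutrophil and 11 to 15 haemoglobin UMIs, against 0 in the syngeneic gates. Allogeneic cells under these cuts therefore also held such RNA. Only cells at or above either cut are called cells carrying, or with, neutrophil or haemoglobin UMIs below. Values without them are given beside results of the 10 genes and their sums that they move. Genes of the other lists are given with these cells included.

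The receptor-type genes did not move one way. Their summed level was higher in allogeneic than in syngeneic Foxp3+ T cells, 170 against 83.3 CPM (58 and 60 UMIs), a log2 ratio of 1.03 (0.48 to 1.58). It was lower in allogeneic B cells, 6.02 against 47.3 CPM (5 and 197 UMIs), a log2 ratio of -2.98 (-4.61 to -1.73). It was 43.5 against 48.4 CPM in CD4 T cells (44 and 252 UMIs; -0.15, -0.65 to 0.31) and 26.1 against 31.3 CPM in the CD8 gate (53 and 400 UMIs; -0.26, -0.71 to 0.15), both within counting error. A gene was counted as higher or lower when it differed at least 2-fold with an interval that excluded no difference, and only genes whose UMIs in the pair of libraries added up to 20 or more were counted. By that rule 7.91% of all genes were higher and 3.57% lower in the CD4 gate, 8.06% and 3.16% in the CD8 gate, 7.9% and 3.74% in the Foxp3+ gate, and 8.29% and 6.8% in the B gate. Of the receptor-type genes with enough UMIs, 0 were higher and 1 of 3 was lower in CD4 T cells, 0 of 4 either way in CD8 T cells, 2 of 3 higher in Foxp3+ T cells, and 3 of 3 lower in B cells. One of the Foxp3+ calls, Egr2, turned to -0.094 without cells carrying neutrophil or haemoglobin UMIs, and the Foxp3+ sum was within counting error after thinning, as given below. Their median log2 ratio was -0.58, -0.30, 1.34 and -2.33 in that order, beside 0.05, 0.05, 0.08 and 0.00 over all genes. Over all kept cells together, Fos, Jun and Junb were higher and 0 of the 10 genes were lower, beside 9.94% and 6.19% of all genes.

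**Figure D1:**
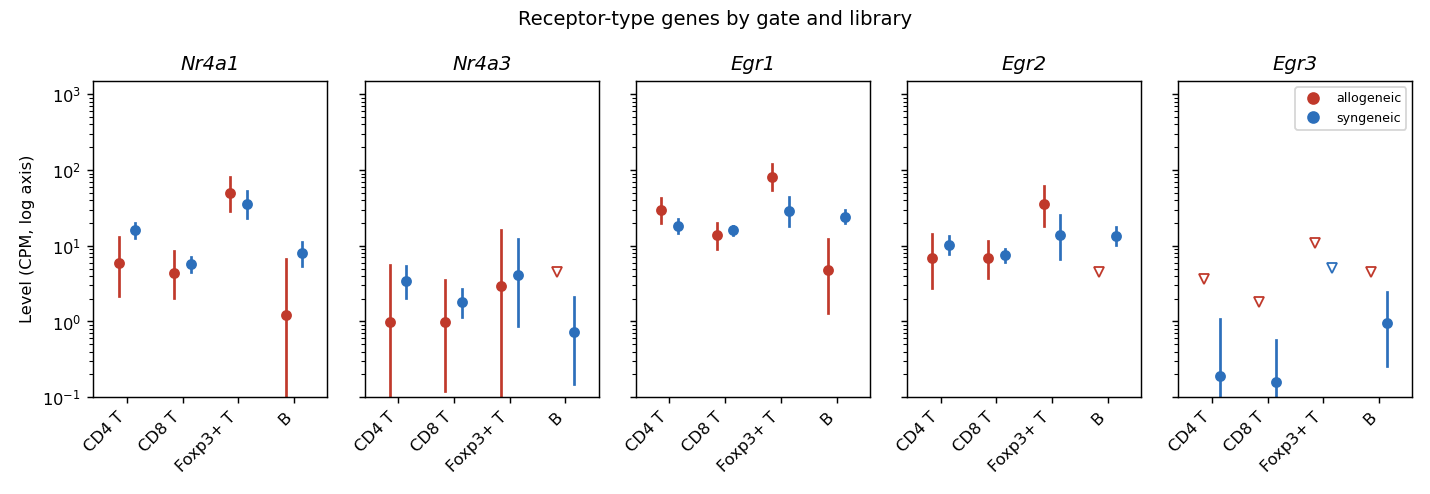
Level in CPM (log axis) of the 5 receptor-type genes in the 4 gates, allogeneic in red and syngeneic in blue, 1 library each. Points are levels with 95% counting intervals, cut at 0.1 CPM, and open triangles mark the upper limit of genes with 0 UMIs. The allogeneic Foxp3+ T cells have the highest Egr1 level, 82.2 CPM, and Egr2 has no UMI in allogeneic B cells.

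Nr4a1 encodes the orphan nuclear receptor Nur77, whose reporter is used to read antigen receptor signal strength. It stood at 5.94 CPM in allogeneic and 15.9 CPM in syngeneic CD4 T cells (6 and 83 UMIs), a log2 ratio of -1.42 (-2.91 to -0.24). In CD8 T cells it was at 4.43 and 5.72 CPM and in Foxp3+ T cells at 49.9 and 36.1 CPM, neither beyond counting error. In B cells 1 allogeneic UMI stood against 33 syngeneic UMIs, 1.20 against 7.93 CPM (-2.72, -8.07 to -0.14). The Foxp3+ gate was highest in both libraries and was apart from the next gate, CD4 T cells, by 8.40-fold in the allogeneic and 2.27-fold in the syngeneic library. Below it, allogeneic CD4 T, CD8 T and B cells were not apart from their neighbours in the order. In the syngeneic library CD4 T cells were above B cells, and B and CD8 T cells were not apart. Nr4a3, a related receptor with partly shared targets, was sparse, with 1 allogeneic UMI against 18 in the CD4 gate and 2 against 23 in the CD8 gate, and no ratio beyond counting error.

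Egr1, a zinc-finger factor induced through the MAP kinase pathway, contributed 68.2% of the receptor-type UMIs in allogeneic CD4 T cells and 38.1% in syngeneic CD4 T cells. Its level there was 29.7 against 18.4 CPM (30 and 96 UMIs; log2 ratio 0.69, 0.05 to 1.29), on the opposite side to Nr4a1. In the CD4 gate 23 of 1063 syngeneic cells had 3 or more receptor-type UMIs and held 64.7% of them, beside 6 of 270 allogeneic cells with 45.5%. Without Egr1 the receptor-type sum in CD4 T cells was 13.9 against 29.9 CPM, a log2 ratio of -1.11 (-2.02 to -0.32). The same omission gave 0.70 (-0.04 to 1.42) in Foxp3+ T cells, within counting error, and -4.26 (-9.58 to -1.75) in B cells, from 1 and 96 UMIs. In Foxp3+ T cells Egr1 stood at 82.2 against 29.2 CPM (28 and 21 UMIs; 1.49, 0.63 to 2.38), in CD8 T cells at 13.8 against 16.1 CPM, and in B cells at 4.81 against 24.3 CPM (4 and 101 UMIs; -2.33, -4.24 to -0.93). By UMI counts the allogeneic order was Foxp3+ T, CD4 T, CD8 T and B, each apart from the next. The last step was barely so, with a lower log2 limit of 0.003 from 4 UMIs in B cells. No neighbours in the syngeneic order were apart. Shares of allogeneic cells with an Egr1 UMI, at the thinned depth given below, had intervals that overlapped between all neighbours. They were 6.98% (2.60 to 14.6), 5.36% (2.96 to 8.84), 2.05% (0.944 to 3.86) and 1.70% (0.466 to 4.30) in that order. The order by cells was therefore not settled.

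Egr2, which with Egr3 restrains T cell activation and is linked to anergy, had 56 UMIs in syngeneic B cells (13.5 CPM) and 0 in allogeneic B cells. With the 0 set to a floor of 3 UMIs over the gate, Egr2 was 3.73-fold lower (log2 ratio -1.90, upper limit of the interval -1.55). In Foxp3+ T cells it stood at 35.2 against 13.9 CPM (12 and 10 UMIs; log2 ratio 1.34, 0.01 to 2.71). Without the cells that carried neutrophil or haemoglobin UMIs this became 2 against 10 UMIs and -0.094 (-3.32 to 2.14), so that the direction did not hold. The CD4 and CD8 gates had 6.93 against 10.4 CPM and 6.90 against 7.52 CPM, within counting error. Egr3 had 0 allogeneic UMIs in all 4 gates and at most 4 syngeneic UMIs in one, and a difference was not detectable at this depth.

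The higher receptor-type level of allogeneic Foxp3+ T cells lay in few cells. In that gate 7 of 91 cells had 3 or more receptor-type UMIs and held 84.5% of them, beside 6 of 127 cells with 73.3% in the syngeneic library. Cells were then thinned to 2000 UMIs each, which left out 5 allogeneic Foxp3+ T, 9 CD4 T, 26 CD8 T and 82 B cells that were shallower and 0 syngeneic cells of these gates. The share with any receptor-type UMI was 10.5% (4.90 to 18.9) against 9.45% (4.98 to 15.9), and the log2 ratio of the sum was 0.45 (-0.42 to 1.30). Without the cells carrying neutrophil or haemoglobin UMIs it was 0.57 (-0.26 to 1.33). The difference in Foxp3+ T cells was therefore not beyond counting error under either setting.

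Allogeneic B cells lacked the cells with several receptor-type UMIs. In syngeneic B cells 26 of 812 cells had 3 or more receptor-type UMIs and held 61.9% of them, and no allogeneic B cell had more than 1. Thinned to 2000 UMIs, 1.70% (0.466 to 4.30) of 235 allogeneic and 6.28% (4.71 to 8.18) of 812 syngeneic B cells had any. Germinal centre genes (Bcl6, S1pr2, Rgs13 and Mef2b) and Mki67, a gene of dividing cells, were chosen after the values were seen. Their sum lay on the same side, at 84.2 CPM in allogeneic and 196 CPM in syngeneic B cells, with 1 of the 5 at 0 in each. Only the sum is given, so germinal centre cells were not told apart from other dividing cells. Without the 11 and 137 B cells that had a UMI of these genes, the receptor-type log2 ratio was -3.12 (-5.01 to -1.73), from 4 and 143 UMIs.

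The stress-type sum, and Junb within it, was higher in the allogeneic library in all 4 gates, which did not hold for each gene. The summed level was 725 against 326 CPM in CD4 T cells (733 and 1700 UMIs; log2 ratio 1.15, 1.03 to 1.28) and 548 against 270 CPM in CD8 T cells (1113 and 3442 UMIs; 1.02, 0.93 to 1.12). In Foxp3+ T cells it was 913 against 463 CPM (311 and 333 UMIs; 0.98, 0.75 to 1.21), and in B cells 462 against 288 CPM (384 and 1198 UMIs; 0.68, 0.51 to 0.85). Of the stress-type genes with enough UMIs, 3 of 4 were higher in CD4 T cells, 3 of 4 in CD8 T cells, 1 of 2 in Foxp3+ T cells and 2 of 3 in B cells, and 0 were lower in any gate, against the shares of all genes given above. Their median log2 ratio was 2.17, 1.73, 0.83 and 1.04 in that order. Of the genes counted as higher, Jun in CD4 T cells turned to -0.048 with stricter gates. Fos in CD8 T cells fell to 0.07 without cells carrying neutrophil or haemoglobin UMIs. Without the cells carrying neutrophil or haemoglobin UMIs the sums differed by 1.26, 1.08, 0.99 and 0.81. In B cells at least as deep as the lowest syngeneic barcode, which left 63 allogeneic stress-type UMIs, the log2 ratio was 0.13 (-0.26 to 0.50).

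**Figure D2:**
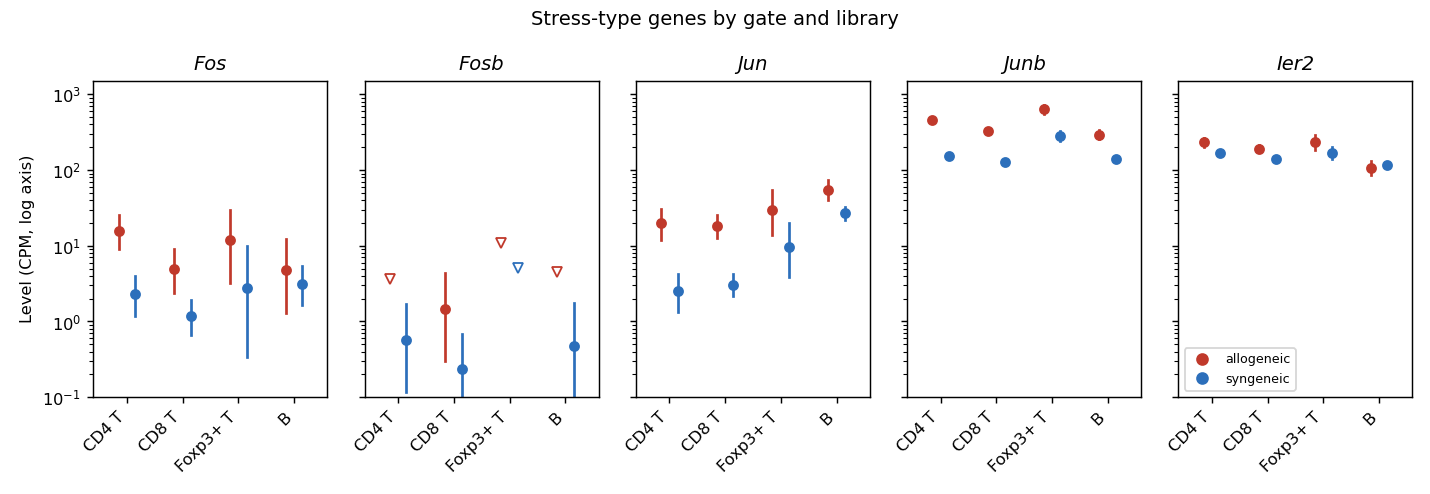
Level in CPM (log axis) of the 5 stress-type genes in the 4 gates, allogeneic in red and syngeneic in blue, 1 library each. Points are levels with 95% counting intervals, cut at 0.1 CPM, and open triangles mark the upper limit of genes with 0 UMIs. Junb is higher in the allogeneic library in each gate, from 295 against 139 CPM in B cells to 637 against 282 CPM in Foxp3+ T cells.

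Junb, an AP-1 subunit that takes part in effector and regulatory T cell programmes, gave 60.4% to 69.8% of the stress-type UMIs of the allogeneic gates. It stood at 458 against 154 CPM in CD4 T cells (log2 ratio 1.57, 1.40 to 1.73), 331 against 127 CPM in CD8 T cells (1.38, 1.25 to 1.52), 637 against 282 CPM in Foxp3+ T cells (1.18, 0.89 to 1.46) and 295 against 139 CPM in B cells (1.08, 0.86 to 1.30). It was highest in Foxp3+ T cells in both libraries, 1.39-fold above CD4 T cells in the allogeneic and 1.83-fold above them in the syngeneic library. Thinned to 2000 UMIs, a Junb UMI was seen in 51.3% against 23.6% of CD4 T cells and 65.1% against 33.9% of Foxp3+ T cells. Ier2, a small nuclear protein gene of the same serum-induced set, differed less. It stood at 232 against 166 CPM in CD4 T cells, 193 against 138 CPM in CD8 T cells and 235 against 168 CPM in Foxp3+ T cells, each with a log2 ratio of 0.48 and an interval above 0. In B cells it stood at 107 against 118 CPM (-0.14, -0.48 to 0.19).

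Fos and Jun, the pair that gives the rule its stress-type name, were sparse. In CD4 T cells Jun had 20 UMIs in the allogeneic and 13 in the syngeneic library, 19.8 against 2.49 CPM, a log2 ratio of 2.99 (1.91 to 4.12). With stricter gates 1 and 8 UMIs were left, and the ratio was -0.048 (-5.52 to 2.85). In CD8 T cells Jun stood at 18.2 against 3.06 CPM (37 and 39 UMIs; 2.58, 1.89 to 3.26), in Foxp3+ T cells at 29.3 against 9.72 CPM (10 and 7 UMIs; 1.59, 0.05 to 3.22) and in B cells at 55.4 against 26.9 CPM (46 and 112 UMIs; 1.04, 0.51 to 1.55). B cells had the highest Jun level in both libraries, apart from the next gate by 2.77-fold in the syngeneic library and within counting error in the allogeneic library. Fos stood at 15.8 against 2.3 CPM in CD4 T cells (16 and 12 UMIs; 2.78, 1.61 to 3.99) and 4.93 against 1.18 CPM in CD8 T cells (10 and 15 UMIs; 2.07, 0.75 to 3.32). The CD8 value rested on cells with neutrophil or haemoglobin UMIs, since without them 1 allogeneic UMI remained and the log2 ratio was 0.07 (-5.33 to 2.77). Fos in Foxp3+ T cells (4 and 2 UMIs) and B cells (4 and 13 UMIs) was within counting error, and Fosb had at most 3 UMIs in any gate.

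**Figure D3:**
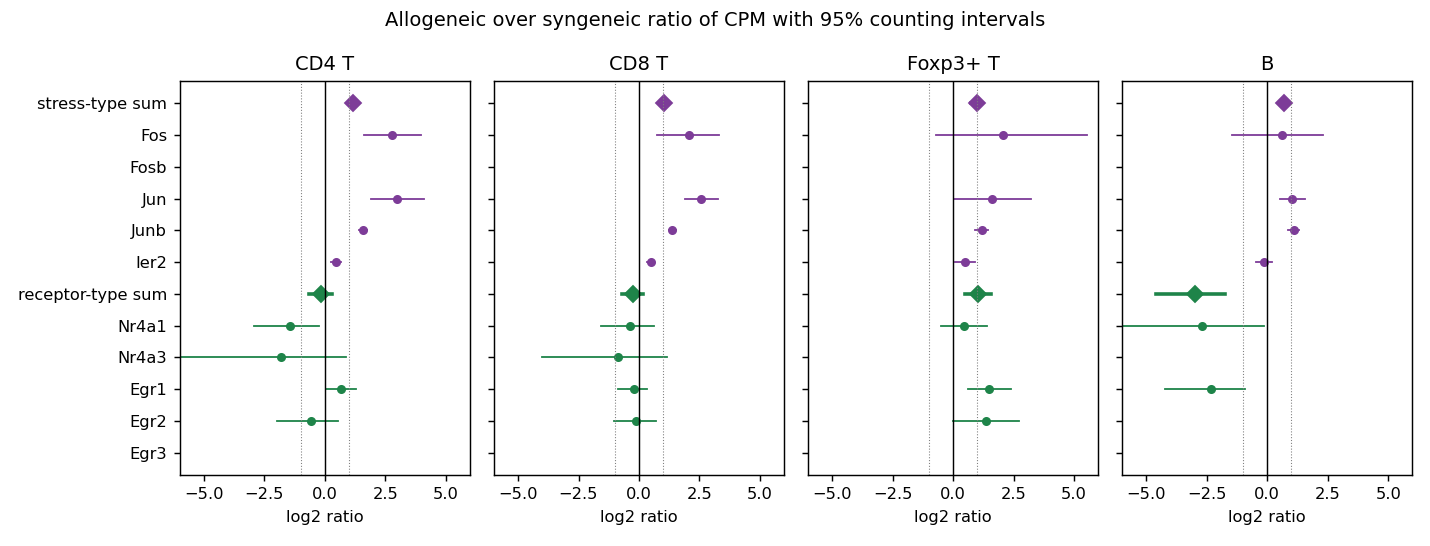
Log2 ratio of CPM, allogeneic over syngeneic, for each gene (circles) and each sum (diamonds) in the 4 gates, with 95% counting intervals cut at 6; stress-type in purple, receptor-type in green, dotted lines at 2-fold. The stress-type sums lie between 0.68 and 1.15, and the receptor-type sums between -2.98 in B cells and 1.03 in Foxp3+ T cells. Genes at or under the floor of 3 UMIs, or with 0 allogeneic UMIs, have no point.

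The number of stress-type UMIs per receptor-type UMI set both groups side by side within the same cells' sums. It was 16.7 in allogeneic and 6.75 in syngeneic CD4 T cells (log2 ratio 1.30, 0.82 to 1.82), 21.0 against 8.61 in CD8 T cells (1.29, 0.86 to 1.74) and 76.8 against 6.08 in B cells (3.66, 2.39 to 5.31). In Foxp3+ T cells it was 5.36 against 5.55 (-0.05, -0.64 to 0.55). T cells with no gate of their own gave 12.6 against 6.84. The syngeneic gates lay within 5.55 to 8.61, while the allogeneic gates ranged from 5.36 to 76.8.

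**Figure D4:**
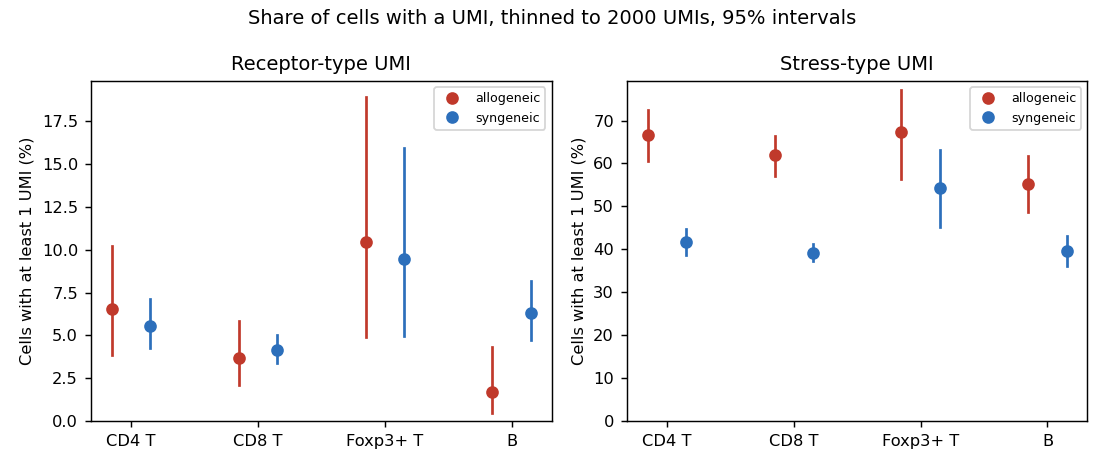
Share of cells (%) with at least 1 receptor-type UMI (left) or stress-type UMI (right) in each gate after thinning to 2000 UMIs, allogeneic in red and syngeneic in blue, with exact 95% intervals. A stress-type UMI is seen in 66.7% against 41.7% of CD4 T cells, and the receptor-type intervals are apart only in B cells.

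Most cells of each gate, 89.5% to 98.3%, had 0 receptor-type UMIs after thinning, so their stress-type means largely restate those of the gate, and 0 UMIs at this depth does not mark a cell as lacking the genes. Thinned to 2000 UMIs, allogeneic and syngeneic cells with 0 receptor-type UMIs had means of 1.35 and 0.581 stress-type UMIs among CD4 T cells (2.33-fold), 1.11 and 0.517 among CD8 T cells (2.15-fold), 1.62 and 0.852 among Foxp3+ T cells (1.90-fold) and 0.926 and 0.516 among B cells (1.79-fold). Any stress-type UMI was seen in 66.7% against 41.7% of all CD4 T cells, 61.9% against 39.2% of CD8 T cells, 67.4% against 54.3% of Foxp3+ T cells and 55.3% against 39.5% of B cells. Unthinned, the CD4 shares were 82.2% and 69.8%. Cells with a stress-type UMI and no receptor-type UMI made up 61.7% of allogeneic and 38.1% of syngeneic CD4 T cells. Cells with a receptor-type UMI and no stress-type UMI were at most 2.36% of any gate, but cells with any receptor-type UMI were only 1.70% to 10.5%. Among the latter, a stress-type UMI was seen in 64.4% to 75% of syngeneic cells by gate. In the allogeneic gates it was 75% to 100%, from 4 to 17 cells each.

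**Figure D5:**
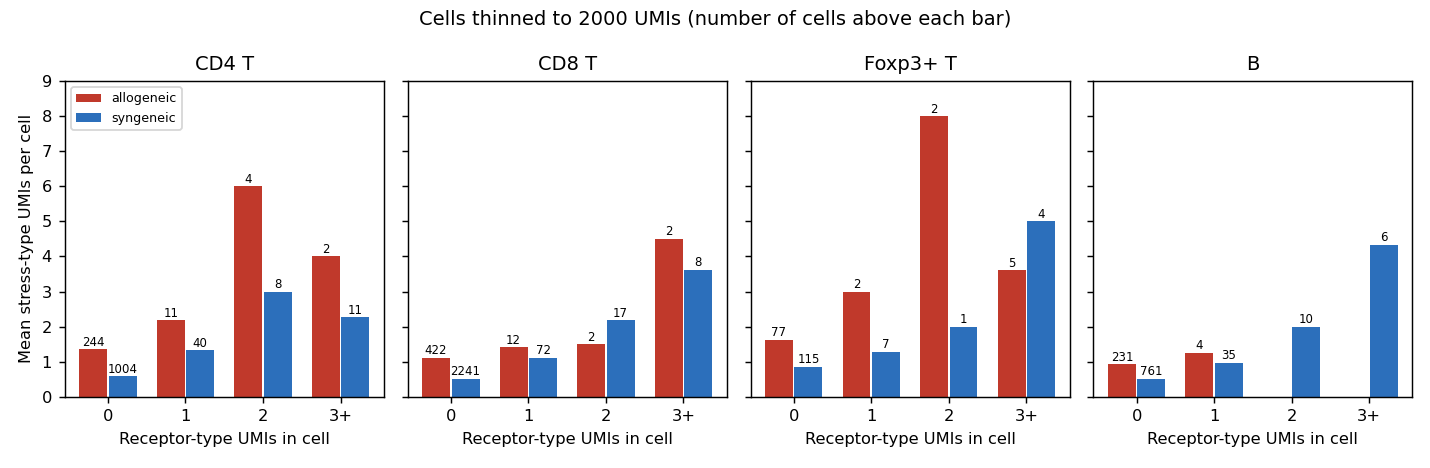
Mean number of stress-type UMIs per cell, by the number of receptor-type UMIs in that cell, in each gate, allogeneic in red and syngeneic in blue, all cells thinned to 2000 UMIs. Numbers above bars are cells. The mean in syngeneic CD8 T cells goes from 0.517 at 0 receptor-type UMIs to 3.62 at 3 or more, and the allogeneic bars past 0 rest on at most 12 cells.

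In the syngeneic CD8 T and B gates, stress-type UMIs were more frequent in cells with more receptor-type UMIs. In syngeneic CD8 T cells the mean was 0.517 stress-type UMIs in 2241 cells with 0 receptor-type UMIs, 1.11 in 72 cells with 1, 2.18 in 17 cells with 2 and 3.62 in 8 cells with 3 or more. Syngeneic B cells went from 0.516 in 761 cells to 4.33 in 6 cells, and syngeneic Foxp3+ T cells from 0.852 in 115 cells to 5 in 4 cells. Syngeneic CD4 T cells went from 0.581 in 1004 cells to 3 in 8 cells with 2 and 2.27 in 11 cells with 3 or more. Thinned to 1000 UMIs the rise was not steady. The means at 2 and at 3 or more were then 2 and 1.5 in syngeneic CD8 T cells (4 and 4 cells) and 1.33 and 1 in B cells (6 and 2 cells). In Foxp3+ T cells the mean was 0.430 at 0 and 0.333 at 1. Pearson's r over cells was 0.35 over 1063 cells of the syngeneic CD4 gate, 0.27 over 2338 cells of its CD8 gate and 0.37 in 812 B cells, as a description of sparse counts in 1 library. Over 127 syngeneic Foxp3+ T cells r was 0.51. In the allogeneic library r was 0.30 over 261 cells of the CD4 gate, 0.17 over 438 cells of the CD8 gate, 0.29 over 86 Foxp3+ T cells and 0.04 over 235 B cells. Among allogeneic CD8 T cells a stress-type UMI was seen in 75% (47.6 to 92.7) of cells with a receptor-type UMI and 61.4% (56.5 to 66.0) of cells without, which overlap. Receptor-type genes also met each other. Over the 4 syngeneic gates, 23 of 131 cells with an Egr1 UMI had an Egr2 UMI (17.6%, 11.5 to 25.2), against 1.12% of the other cells, and 19 had an Nr4a1 UMI (14.5%, 8.96 to 21.7), against 0.832%. Of those Egr1 cells 53 had a Junb UMI (40.5%, 32.0 to 49.4), against 21.0% of the others. Of 52 syngeneic cells with a Jun UMI, 5 had an Egr1 UMI (9.62%, 3.20 to 21.0), against 2.94%, whereas in the allogeneic gates 1 of 40 Jun cells did (2.50%, 0.063 to 13.2), against 3.27%. In the allogeneic gates 5 of 33 Egr1 cells had an Egr2 UMI (15.2%, 5.11 to 31.9), against 0.811%, and 23 had a Junb UMI (69.7%, 51.3 to 84.4), against 46.3%.

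Other signal targets were read in the same ranges of cells. Among the cells with at least 2 receptor-type UMIs and any stress-type UMI, 16 allogeneic and 58 syngeneic cells, Cd69, an early activation antigen, was at 1969 and 948 CPM, against 226 and 66.2 CPM in cells with stress-type UMIs and fewer receptor-type UMIs. Dusp2, a phosphatase of MAP kinases induced by receptor signals, was at 2250 and 1017 CPM against 288 and 180.0 CPM. Dusp1, a phosphatase known for induction by stress and glucocorticoids, was at 250 and 25.9 CPM against 68.1 and 7.98 CPM, from 8 and 3 UMIs in the former range. The ranges differed in makeup: Foxp3+ T cells, which had the highest Cd69 level of the 4 gates in each library, were 7 of the 16 and 5 of the 58 cells, against 51 of 617 and 64 of 1692, and the part of that in these levels was not tested. Among syngeneic cells with at least 2 receptor-type UMIs, Tnfsf14 was seen in 6 of 19 CD4 T cells against 2 of 1004 cells with none. That gene was first in syngeneic CD4 T cells among the genes most like the receptor-type genes in single cells. It was the third in syngeneic CD8 T cells (3 of 25 cells against 10 of 2241) and was not among the first 10 in syngeneic B cells, and most of the other genes so found rested on 1 or 2 cells. The allogeneic gates and the syngeneic Foxp3+ gate had too few such cells for this comparison. Over the 8 sums of gate and library, Acot9 (r = 0.96) was most like the receptor-type sum and Tmed9 (r = 0.99) most like the stress-type sum among 7017 genes. Each is the largest of that many correlations over only 8 sums, with Rmdn1 (0.958) and Zfp868 (0.983) next. How high r would reach among unrelated genes was not tested.

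Other targets of antigen receptor signalling lay on both sides in each gate. Of 22 such genes, 6 were higher and 6 lower among 18 with enough UMIs in the CD4 gate, 2 and 5 among 20 in the CD8 gate, 3 and 2 among 14 in Foxp3+ T cells, and 1 and 4 among 14 in B cells, beside 7.91% and 3.57%, 8.06% and 3.16%, 7.9% and 3.74%, and 8.29% and 6.8% of all genes. Cd69 was higher in all 4 gates, at 240 against 68.7 CPM, 201 against 64.3 CPM, 478 against 111 CPM and 116 against 43.0 CPM in the order above. In B cells Cd83, an activation marker of germinal centre light zone and activated B cells, stood at 117 against 388 CPM (log2 ratio -1.73, -2.04 to -1.44), and Tagap at 10.8 against 45.9 CPM (-2.08, -3.23 to -1.13), on the same side as Egr1 and Egr2. In CD8 T cells the chemokine genes Xcl1 (1.97 against 36 CPM) and Ccl4 (6.90 against 35.4 CPM) were lower. Il2, the T cell growth factor, was higher there at 32.5 against 13.1 CPM. In B cells Il2 stood at 40.9 against 20.7 CPM (34 and 86 UMIs), so neither its counts nor their rise were particular to T cells. In CD4 T cells Ccl4 stood at 33.6 against 1.73 CPM and Tnf at 2.97 against 16.3 CPM. The allogeneic CD4 gate held the neutrophil genes at 16152 CPM, and 31.5% of its cells had at least 5 neutrophil or 20 haemoglobin UMIs. Levels without such cells are not given for Ccl4 or the other genes of this paragraph.

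The list of stress and dissociation genes held members on both sides. Of 19 genes, 5 were higher and 1 lower among 17 with enough UMIs in CD4 T cells, 5 and 1 among 17 in CD8 T cells, 4 and 2 among 16 in Foxp3+ T cells, and 6 and 2 among 17 in B cells. Over all genes 7.91% were higher and 3.57% lower in the CD4 gate, 8.06% and 3.16% in the CD8 gate, 7.9% and 3.74% in the Foxp3+ gate and 8.29% and 6.8% in the B gate, and 1 lower gene of 17 is near those shares. Dusp1 was higher in each gate, from 35.0 against 6.5 CPM in CD8 T cells to 147 against 15.3 CPM in Foxp3+ T cells. Socs3, a feedback inhibitor of cytokine signalling, was higher by log2 ratios of 2.43, 2.26, 2.90 and 3.67. Both Dusp1 and Socs3 were read with the cells carrying neutrophil or haemoglobin UMIs included. Heat shock genes, which the list holds but which were not counted apart, were not on one side. Hsph1 was lower in each gate, from -1.38 (-2.54 to -0.40) in B cells to -3.17 (-8.55 to -0.52) in Foxp3+ T cells, and Hspe1, a mitochondrial chaperonin gene, stood at 185 against 453 CPM in Foxp3+ T cells and 205 against 429 CPM in B cells. Dnajb1, a co-chaperone gene, had log2 ratios of 0.49, 0.47, 0.73 and 0.70 that did not reach 2-fold, and Hspa1a and Hspa1b had at most 1 UMI in any gate of either library.

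Among 16 further immediate early factors, 1 of 8 with enough UMIs was higher in CD4 T cells, 2 of 9 in CD8 T cells, 0 of 6 in Foxp3+ T cells and 3 of 9 in B cells, with 0 lower in any gate. Beside 7.91%, 8.06%, 7.9% and 8.29% of all genes, counts of 0 to 2 among so few genes are not apart from the background. Klf10, a zinc-finger factor induced by transforming growth factor beta, stood at 32.7 against 8.25 CPM in CD4 T cells, 23.6 against 7.21 CPM in CD8 T cells and 18.1 against 5.28 CPM in B cells. Fosl2, another AP-1 subunit, had 25 UMIs in allogeneic and 1 UMI in syngeneic B cells, a log2 ratio of 6.97 (4.36 to 12.3). This count includes B cells carrying neutrophil or haemoglobin UMIs. Among 22 upstream factors and feedback regulators, 1 was higher and 1 lower among 21 in CD4 T cells, 1 and 1 among 21 in CD8 T cells, 1 and 2 among 18 in Foxp3+ T cells, and 2 and 0 among 21 in B cells, and counts of 0 to 2 are not apart from the all-gene shares above. Zfp36l2, which promotes decay of AU-rich mRNAs, was higher in each gate, from 508 against 112 CPM in CD8 T cells (2.19) to 688 against 52.6 CPM in B cells (3.71). Creb1, whose protein binds the element whose half-site is printed above, had 5 and 35 UMIs in Foxp3+ T cells, 14.7 against 48.6 CPM.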

How the data were processed

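The authors deposited raw UMI counts per gene and barcode for 1 library per group, not normalised. Libraries were made with a Chromium 3′ v3 kit, per the labels' protocols. Cell Ranger 2.2.0, STAR, Seurat 2.3.4 and mm10 are named in the submitters' processing notes. The sources used here do not say how barcodes were chosen. Rows sharing a symbol were summed.

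T gates needed at least 2 UMIs of T lineage genes, among them Cd3d, Cd3e and Cd3g, and at most 1 B lineage UMI. They were split by Cd4, Cd8a or Cd8b1, and Foxp3. B cells needed at least 3 UMIs of B lineage genes, among them Cd79a, Cd79b and Ms4a1, and at most 1 T lineage UMI, and a further marker used is not reported here. CPM is of all UMIs of a gate. No doublet caller was run. Leaving out the 5% of cells with most UMIs was an alternative.

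Ratios have exact conditional binomial intervals, levels exact Poisson intervals and shares Clopper-Pearson intervals, at 95% (SciPy 1.17.1, NumPy 2.4.6). Thinning to 2000 UMIs used a fixed seed. The floor of 3 UMIs corresponds to 0.357 CPM of the allogeneic and 0.0645 CPM of the syngeneic library. On simulated counts, 99% to 100% of 200 genes changed 4-fold were recovered in each gate.

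All 10 genes were described. Of each other list, the rule named up to 4 genes of highest mean CPM and, per gate, up to 3 of the largest ratio in each direction, and only part of these is described. The genes, lists and tests were chosen with earlier results of these data known.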

Additional observations from a re-analysis of the deposited data

Results flagged for a closer look

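The receptor-type sum lay on opposite sides in 2 gates of the same pair of libraries. Its log2 ratio, allogeneic over syngeneic, was 1.03 in Foxp3+ T cells and -2.98 in B cells. In Foxp3+ T cells the value was within counting error when cells were thinned to 2000 UMIs (0.45, -0.42 to 1.30), without cells carrying neutrophil or haemoglobin UMIs (0.57, -0.26 to 1.33) and without Egr1 (0.70, -0.04 to 1.42). With 1 library per group the difference between the gates was not tested.

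Junb and Ier2 were also counted in barcodes that the cell filter removed. The 1071 allogeneic barcodes with under 200 genes, of which haemoglobin genes took 64.4% of the UMIs, held 79 Junb UMIs and 58 Ier2 UMIs. Without haemoglobin that is 407 CPM (322 to 507) and 299 CPM (227 to 386). The syngeneic library had 0 such barcodes, so there is no control value. Set against these barcodes, the level of genes of the other lineage in each allogeneic gate corresponds to a free RNA share of 2.18% in CD4 T, 5.30% in CD8 T, 3.82% in Foxp3+ T and 9.98% in B cells. At those shares such RNA would add 8.87 to 40.6 CPM of Junb, beside gated levels of 295 to 637 CPM. The gates admitted at most 1 UMI of the other lineage, so these shares can be held low by the gating. Neutrophil RNA did not enter them. The part of free RNA in the Junb levels was not tested.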

How the results depend on the processing

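Each group has 1 library, so intervals cover counting error only, and graft type cannot be told apart from library, depth and how barcodes were chosen. No paired analysis was possible because each group has 1 library. For the receptor-type sum, the log2 ratio became -1.11 in CD4 T cells without Egr1 (-4.26 in B cells), -0.86 in CD8 T cells with stricter gates and 0.45 in Foxp3+ T cells thinned to 2000 UMIs. The stress-type sum became 0.91 in CD8 T cells with median-of-ratios scaling, 0.53 in Foxp3+ T cells with stricter gates and 0.13 in B cells at least as deep as the lowest syngeneic barcode. Over Fos, Fosb and Jun alone it was 2.73 in CD4 T, 2.46 in CD8 T, 1.72 in Foxp3+ T and 0.98 in B cells. Stress-type per receptor-type UMI in CD8 T cells became 1.83 with stricter gates. Egr2 in Foxp3+ T cells turned to -0.094 without cells carrying neutrophil or haemoglobin UMIs, and Jun in CD4 T cells to -0.048 with stricter gates, and the cause was not tested. Median-of-ratios scaling shifts all log2 ratios by 0.13, 0.12, 0.09 and 0.07 in CD4 T, CD8 T, Foxp3+ T and B cells. The alternative on germinal centre genes and Mki67 was chosen after seeing the data. So were those on neutrophil or haemoglobin UMIs, shared barcodes, Egr1 and Fos, Fosb and Jun.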
